A study of Mus musculus with 6 samples.

Results

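Neuroblasts are the migrating immature neurons of the subventricular zone, the stem cell niche that lines the lateral ventricle beside the striatum. The 9 genes described here, Dcx, Sox11, Dlx1, Dlx2, Dlx5, Cd24a, Igfbpl1, Sp8 and Sp9, are names used for these cells. Each gene was read from a probe set that the platform annotation gives exactly 1 gene symbol, and from the one with the highest mean where a gene had several. By this rule 8 of the 9 were measured, among 22180 genes measured in the same way. The only probe set that lists Dlx1 also lists its antisense transcript Dlx1as, so Dlx1 was not analysed here. Of the measured genes, Cd24a had 2 probe sets and the other genes had 1 each.

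Gene expression was measured in 6 macrodissected mouse brain lesions, 3 from transgenic and 3 from wild type mice, with 1 Affymetrix array per lesion. The transgene allows GFAP-positive astrocytes that do not proliferate to be eliminated; the labels give no strain. By the labels' shared treatment protocol, mice of both genotypes were lesioned at 5 to 6 weeks of age with LPC, a detergent-like lipid used to cause focal demyelination, received CID, the compound that sets off the ablation, 48 hours later, and were killed 7 days after the lesion. The wild type lesions are thus lesioned and CID-treated too, and no unlesioned tissue or untreated transgenic mouse was analysed here. The labels do not say whether each lesion is from its own animal. A p-value here therefore reflects the spread among these arrays, which may be technical.

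In the adult zone, GFAP-expressing stem cells give rise to transit-amplifying cells, and these to neuroblasts, which migrate in chains along the rostral migratory stream to the olfactory bulb and mature there into interneurons. After injury, including demyelination, cells of the zone can also move into neighbouring tissue. The homeodomain factors Dlx1, Dlx2 and Dlx5 and the zinc finger factors Sp8 and Sp9 act in the specification of these GABAergic neurons, Sox11 drives the immature neuron programme, Dcx is a microtubule protein of migrating neurons, and Cd24a is a surface glycoprotein that neuroblasts share with ependymal cells and some leukocytes.

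Upstream sequences are shown for the 3 measured members whose RefSeq promoter entry ends at the outermost annotated start of the gene. RefSeq (GRCm38.p6) promoter entries matched 6 of the 9 genes, and only the 250 bases before the start are given, 5′ to 3′ on the gene's strand. Capitals mark the GC box of Sp factors, GGGCGG, which here lies on the reverse strand as CCGCCC in every case. Dlx2 is at chr2:71546755-71547004 on the minus strand, Sp9 at chr2:73271676-73271925 on the plus strand and Sox11 at chr12:27342719-27342968 on the minus strand.
Dlx2: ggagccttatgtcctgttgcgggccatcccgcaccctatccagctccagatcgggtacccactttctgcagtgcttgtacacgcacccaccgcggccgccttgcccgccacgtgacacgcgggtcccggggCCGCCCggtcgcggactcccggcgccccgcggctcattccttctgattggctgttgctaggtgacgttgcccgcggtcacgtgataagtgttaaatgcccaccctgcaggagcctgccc
Sp9: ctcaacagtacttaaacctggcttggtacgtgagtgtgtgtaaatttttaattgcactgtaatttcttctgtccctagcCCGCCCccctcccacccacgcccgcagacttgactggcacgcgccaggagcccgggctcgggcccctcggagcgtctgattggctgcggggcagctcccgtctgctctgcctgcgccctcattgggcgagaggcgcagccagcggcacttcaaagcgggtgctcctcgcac
Sox11: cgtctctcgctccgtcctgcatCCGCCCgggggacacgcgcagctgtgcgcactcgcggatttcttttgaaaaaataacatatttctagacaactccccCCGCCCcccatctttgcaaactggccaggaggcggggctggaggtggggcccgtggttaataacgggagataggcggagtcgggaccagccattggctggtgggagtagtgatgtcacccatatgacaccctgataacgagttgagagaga

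The 6 genes matched have 9 entries, since Sp8 and Dcx have several. With both strands searched, GGGCGG lay in these 250 bases in 4 of the 9 entries, 1 each of Dlx2, Sox11, Sp8 and Sp9, and in 32.7% of all 32851 entries. The homeodomain core TAATTA was found in 3 of the 9, from Dcx and Sp8, and in 4.84% of all entries. The Dcx entries overlap, so the same match may be counted more than once. The E-box CAGCTG was found in 1 of the 9, of Sox11, and in 13.0% of all entries. The E-box of Sox11 does not overlap its GC boxes. A match describes the letters only. In the RefSeq gene table Dlx1 and Dlx2 are neighbours on chromosome 2, with Dlx1as between them, and Dlx5 lies beside Dlx6 on chromosome 6.

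Before the members, the arrays themselves differed. Transgenic replicate 2 had a median log2 intensity of 5.34, and the other arrays 5.52 to 5.59. By Xist, the transcript of the inactive X chromosome, and Y-linked genes, transgenic replicates 1 and 3 were male, and transgenic replicate 2 and every wild type array female. Xist stood at 4.67, 9.14 and 4.42 in transgenic replicates 1, 2 and 3, and at 9.49, 9.30 and 9.30 in wild type replicates 1, 2 and 3. The labels give no sex, and genotype and sex largely coincide. The tissue was brain by its markers, with the neuronal gene Snap25 at 11.85 ± 0.30 in transgenic and 11.70 ± 0.12 in wild type lesions and Gfap at 8.99 ± 0.22 and 9.37 ± 0.40 (log2 intensity, SD, n = 3 each).

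The transgenic lesions were compared with the wild type lesions, a contrast in which genotype and sex largely coincide. The mean of every measured neuroblast gene was lower in transgenic lesions. The differences, transgenic minus wild type on the log2 scale, ran from -0.72 for Cd24a and Dlx5 to -0.19 for Sox11, with a median of -0.56. Across all 41345 probe sets 51.1% had a lower mean, and the median difference was -0.01. None of the 8 genes passed the adjusted threshold of 0.05 in limma, and neither did any other probe set (0.0%). Their adjusted p-values lay between 0.400 for Igfbpl1 and 0.830 for Sox11. At an unadjusted p under 0.05, 3 of the 8 were lower, Igfbpl1, Sp9 and Dlx2, where 4.05% of all probe sets were lower at that threshold. In 3 of the 8, Igfbpl1, Sp8 and Sp9, all transgenic values were under all wild type values, as in 7.6% of all probe sets. None of the 8 had the opposite order, which 8.54% of all probe sets had. The 3 separate genes were also the only members whose mean lay below that of the median probe set. In bulk lesions, fewer neuroblasts and less RNA per neuroblast cannot be told apart.

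**Figure D1:**
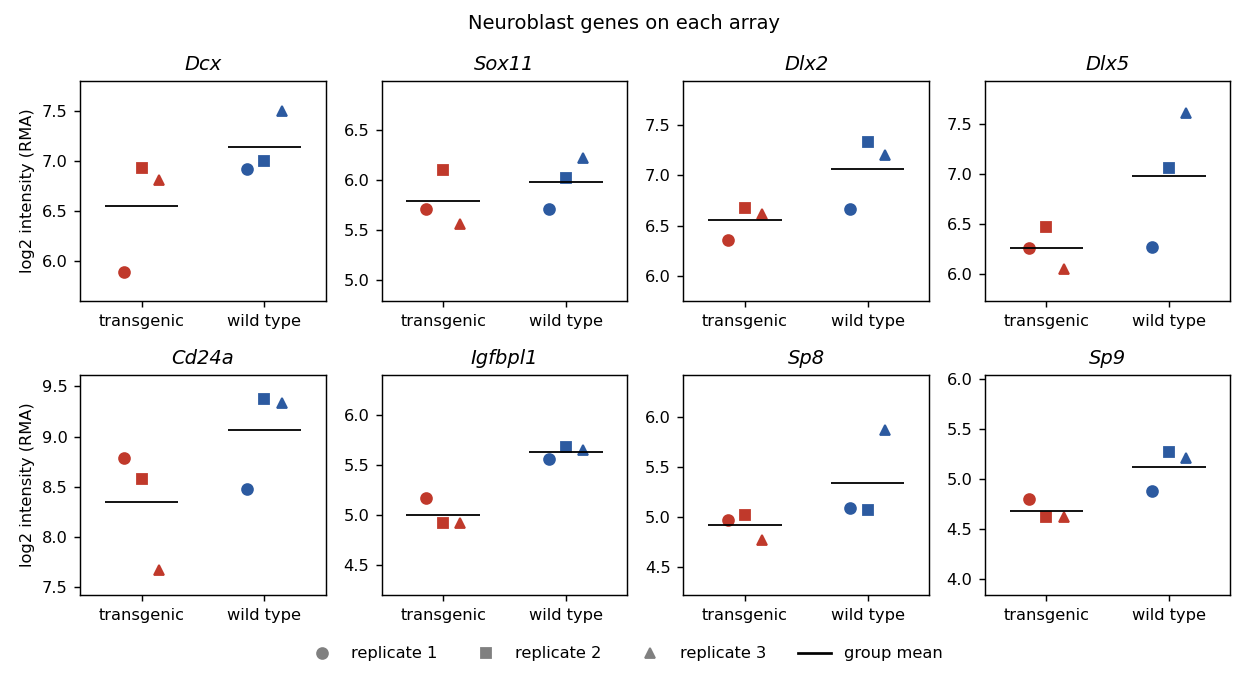
Log2 RMA intensity of the 8 measured neuroblast genes on each array, transgenic left and wild type right, with replicates as symbols and group means as bars, on axes of equal span. Wild type replicates 2 and 3 hold the highest value of every gene, and the groups are apart only for Igfbpl1, Sp8 and Sp9.

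The Dlx factors were measured through Dlx2 and Dlx5. Dlx2, which promotes GABAergic fate and neuroblast migration, had log2 intensities of 6.36, 6.68 and 6.62 in transgenic replicates 1, 2 and 3, against 6.67, 7.33 and 7.20 in wild type replicates 1, 2 and 3. Wild type replicates 2 and 3 stood apart at the top, and wild type replicate 1 lay just under transgenic replicate 2. The difference was -0.52 (SE 0.21, 1.43-fold, adjusted p 0.547 in limma). Dlx5, a later factor of the same lineage, had 6.27, 6.47 and 6.05 in transgenic replicates 1, 2 and 3, against 6.27, 7.06 and 7.61 in wild type replicates 1, 2 and 3. Here wild type replicate 1 lay within the transgenic range, while wild type replicates 2 and 3 were well above it. The difference was -0.72 (SE 0.33, 1.65-fold, adjusted p 0.587 in limma), and -0.41 without wild type replicate 3.

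Sp8 and Sp9 are paired zinc finger factors that interneurons of the olfactory bulb need for their production and survival. Sp9 had log2 intensities of 4.80, 4.62 and 4.63 in transgenic replicates 1, 2 and 3, against 4.88, 5.27 and 5.22 in wild type replicates 1, 2 and 3. The groups did not overlap, with wild type replicate 1 closest to the transgenic arrays. The difference was -0.44 (SE 0.16, 1.36-fold, adjusted p 0.514 in limma). Sp8 had 4.97, 5.02 and 4.77 in transgenic replicates 1, 2 and 3, against 5.09, 5.07 and 5.87 in wild type replicates 1, 2 and 3. The groups were separate by a narrow margin, and 1 array, wild type replicate 3, stood high. The difference was -0.42 (SE 0.24, 1.34-fold, adjusted p 0.661 in limma), and -0.16 without wild type replicate 3. Sp8, Sp9 and Igfbpl1 were the 3 measured members whose mean lay below that of the median probe set. Without detection calls, such low values cannot be told from background signal.

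Igfbpl1, a secreted protein related to the insulin-like growth factor binding proteins and used as a marker of neuroblasts, had the smallest p of the members. Its log2 intensity was 5.17, 4.92 and 4.92 in transgenic replicates 1, 2 and 3, against 5.56, 5.68 and 5.65 in wild type replicates 1, 2 and 3. All wild type arrays lay within a narrow band above all transgenic ones, wild type replicate 1 included. The difference was -0.63 (SE 0.14, 1.55-fold), with a 95% confidence interval of -0.97 to -0.29 and an adjusted p of 0.400 in limma. Leaving out any single array kept it between -0.72 and -0.59.

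Dcx, the doublecortin of migrating and immature neurons, had log2 intensities of 5.90, 6.94 and 6.81 in transgenic replicates 1, 2 and 3, against 6.92, 7.00 and 7.50 in wild type replicates 1, 2 and 3. One low array, transgenic replicate 1, and one high array, wild type replicate 3, set most of the distance, and transgenic replicate 2 overlapped wild type replicate 1. The difference was -0.59 (SE 0.30, 1.51-fold, adjusted p 0.627 in limma), and -0.27 without transgenic replicate 1. Dcx lies on the X chromosome. With sex as a covariate, a fit in which transgenic replicate 2 alone sets the difference, Dcx differed by -0.21 (SE 0.39).

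Sox11, a transcription factor that turns on early neuronal genes, differed least. It had log2 intensities of 5.70, 6.09 and 5.56 in transgenic replicates 1, 2 and 3, against 5.71, 6.01 and 6.21 in wild type replicates 1, 2 and 3. The ranges overlapped over most of their width, and transgenic replicate 2 was the second highest array. The difference was -0.19 (SE 0.20, adjusted p 0.830 in limma), with a 95% confidence interval of -0.67 to 0.28. It was -0.35 without transgenic replicate 2, -0.33 without wild type replicate 1 and -0.08 without transgenic replicate 3 or without wild type replicate 3, and turned to 0.11 with sex as a covariate.

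Cd24a had 8.79, 8.58 and 7.66 in transgenic replicates 1, 2 and 3, against 8.48, 9.37 and 9.34 in wild type replicates 1, 2 and 3, on its brighter probe set. Wild type replicate 1 lay below transgenic replicates 1 and 2, and transgenic replicate 3 was the lowest array. The difference was -0.72 (SE 0.36, 1.65-fold, adjusted p 0.617 in limma), and -0.38 without transgenic replicate 3. The dimmer probe set of Cd24a had 7.29, 7.02 and 6.52 in transgenic replicates 1, 2 and 3, against 7.59, 8.21 and 8.08 in wild type replicates 1, 2 and 3. On this probe set the groups did not overlap, and the difference was -1.01 (SE 0.25, 2.02-fold, adjusted p 0.407 in limma). Both probe sets were thus lower on average, but they placed wild type replicate 1 differently against the transgenic arrays.

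**Figure D2:**
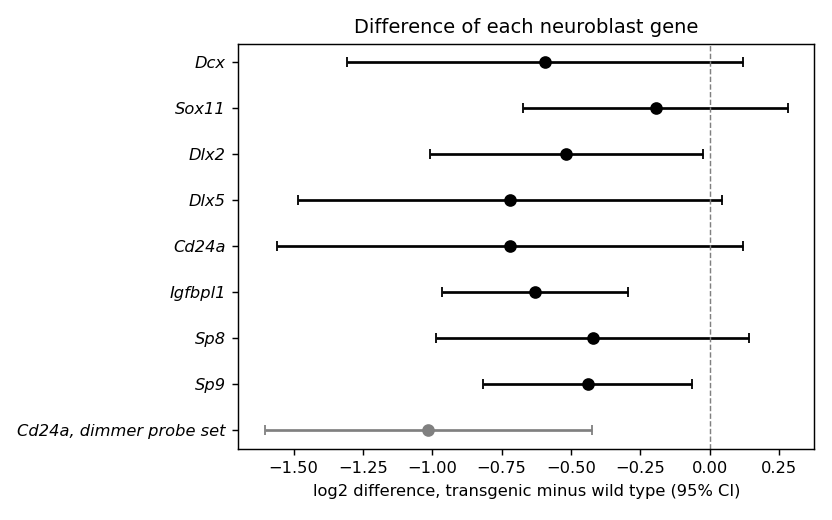
Log2 difference of each neuroblast gene, transgenic minus wild type, with the 95% confidence interval of the limma fit over 3 arrays per group; grey marks the second probe set of Cd24a. Every point is below 0, and the intervals of Dlx2, Igfbpl1, Sp9 and the dimmer Cd24a probe set do not reach 0.

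Across the members, the same arrays recurred at the extremes. Wild type replicate 2 held the highest value of 4 genes and wild type replicate 3 that of the other 4, as in 11.9% and 11.6% of all probe sets. Wild type replicate 1 was the lowest wild type array in 7 of the 8, as in 33.4% of all probe sets. Wild type replicate 3 lay above all transgenic arrays in 8 of the 8 and wild type replicate 2 in 7 (20.9% of all probe sets for either), and wild type replicate 1 in 3 (23.4%). Among transgenic arrays, replicate 3 lay below all wild type arrays in 8 of the 8 (28.7% of all probe sets), replicate 1 in 7 (31.7%) and replicate 2 in 3, a share near that of all probe sets (35.4%). Without wild type replicate 1, the groups did not overlap in 7 of the 8 genes, against 10.8% of all probe sets (lower in transgenic). Without transgenic replicate 2 the count was also 7, against 13.5% of all probe sets. That subset sets male transgenic against female wild type arrays. Wild type replicate 1 and transgenic replicate 2 overlapped the other group in the most genes. Both counts of 7 therefore follow from the choice of array. Leaving out any other single array gave 3 separate genes, the same count as with every array kept. Transgenic replicate 2, the female transgenic lesion, was below the wild type mean in 7 of the 8 genes and in 20655 of all 41345 probe sets.

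Genes of striatal projection neurons, which surround the lateral wall of the niche, marked the same wild type arrays. Of the 14 listed striatal genes 11 were measured, and the transgenic mean was the lower one for all 11 (median -1.09). Rgs9, a signalling regulator of these neurons, differed by -1.48 (SE 0.52). The mean of the list was 6.32, 6.74 and 6.39 in transgenic replicates 1, 2 and 3, and 6.17, 7.80 and 8.33 in wild type replicates 1, 2 and 3. The striatal level was thus high in wild type replicates 2 and 3 and lowest in wild type replicate 1. The mean of the 8 neuroblast genes was 6.00, 6.16 and 5.88 in transgenic replicates 1, 2 and 3, and 6.20, 6.60 and 6.83 in wild type replicates 1, 2 and 3. Summed over the striatal genes, the linear intensity ran from 1086 to 1513 in transgenic lesions and from 988 to 4947 in wild type lesions, and no gene was at 0. Penk, the enkephalin precursor of striatal neurons, named after its values were seen, had the widest range, at 6.54, 7.38 and 6.78 in transgenic replicates 1, 2 and 3, against 5.85, 9.33 and 10.03 in wild type replicates 1, 2 and 3. In wild type replicate 1, where the striatal mean was lowest, Igfbpl1, Sp8 and Sp9 lay above all transgenic arrays, Sp8 by a narrow margin. Dcx, Sox11, Dlx2, Dlx5 and the brighter probe set of Cd24a did not lie above all of them. The dimmer probe set of Cd24a did, at 7.59 against 7.29 in transgenic replicate 1, the highest transgenic array. The part of the dissected region in the neuroblast values was not tested.

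**Figure D3:**
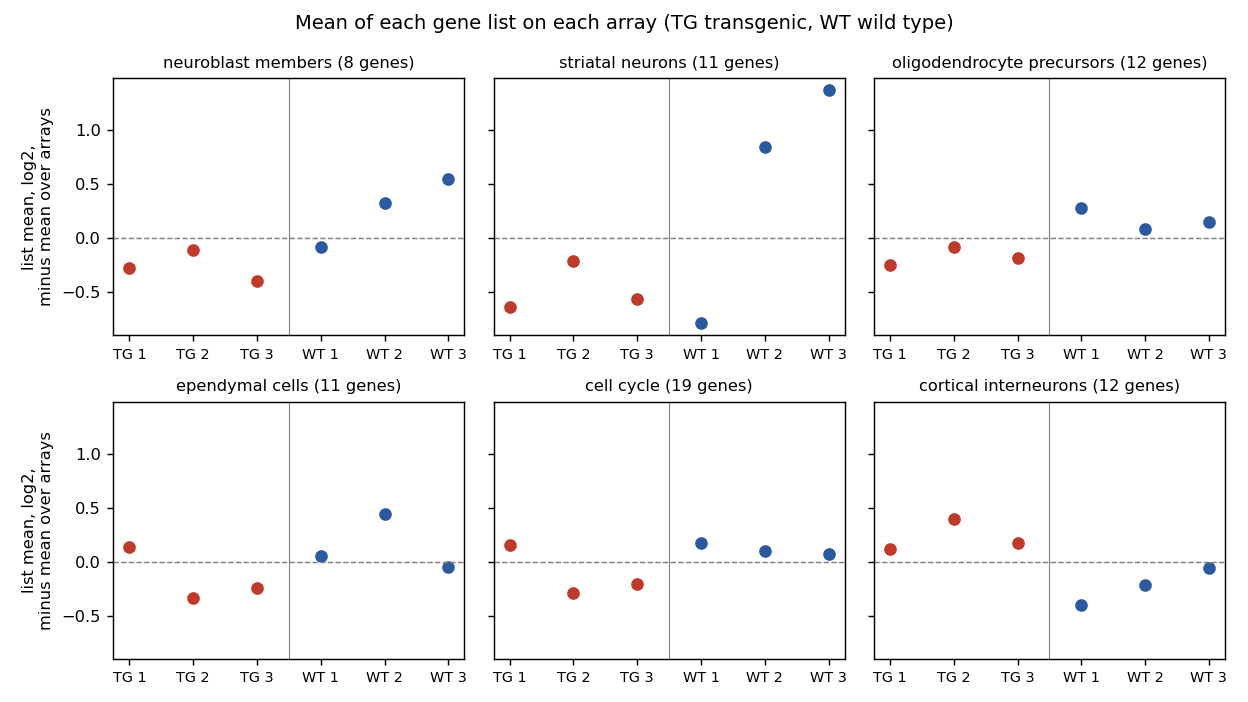
Mean log2 intensity of 6 gene lists on each array, minus the mean over the 6 arrays; transgenic (TG) replicates stand left and wild type (WT) replicates right of the line. The neuroblast and striatal lists are both highest in wild type replicates 2 and 3, while the precursor list is also high in wild type replicate 1.

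Other genes of neuroblasts and immature neurons did not move one way. Of 30 listed, 28 were measured, with 16 lower and 12 higher on transgenic arrays and a median difference of -0.06. At an unadjusted p under 0.05, 2 were lower and 2 higher, and none passed after adjustment in limma. Sox4, the close relative of Sox11, had 7.18 to 7.51 on the transgenic arrays, against 7.74 to 8.24 on the wild type arrays, a difference of -0.70 (SE 0.18) with groups that did not overlap. Sox4 is also expressed in oligodendrocyte precursors and other immature cells. Pbx3, a homeodomain partner factor, differed by -0.69 (SE 0.24), again with separate groups. Elavl2 (0.36, SE 0.14) and Elavl4 (0.42, SE 0.17), RNA-binding proteins that mature neurons also express, had the higher means. At an unadjusted p under 0.05, 4.05% of all probe sets were lower and 4.82% higher.

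The list also holds Dlx6 and Meis2. Dlx6, the neighbour of Dlx5, had 5.73, 6.35 and 6.09 in transgenic replicates 1, 2 and 3, against 6.11, 6.74 and 7.25 in wild type replicates 1, 2 and 3, a difference of -0.65 (SE 0.31). Its pattern had the 2 arrays at the top that also led for Dlx5. Meis2, a factor of olfactory bulb neuroblasts and of striatal neurons, differed by -0.68 (SE 0.31). Genes of the list that adult neurons also express lay on both sides of 0. The adhesion molecule Ncam1 differed by -0.52 (SE 0.24) with groups that did not overlap, Stmn2 by 0.36 (SE 0.19), Tubb3 by 0.08 (SE 0.22), and Dclk1, the paralog of Dcx, by 0.12 (SE 0.19). These examples were chosen after their values were seen.

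Upstream of neuroblasts, the list of stem and transit-amplifying cells held 24 genes, of which 23 were measured. The means of 15 were lower and of 8 higher, with a median difference of -0.14. At an unadjusted p under 0.05, 4 were lower and 0 higher, against 4.05% and 4.82% of all probe sets. Thbs4, which stem cell astrocytes of the zone make, had 7.24, 6.73 and 7.07 in transgenic replicates 1, 2 and 3, against 8.07, 8.31 and 8.02 in wild type replicates 1, 2 and 3. The groups were far apart and wild type replicate 1 was as high as the others, with a difference of -1.12 (SE 0.18, adjusted p 0.243 in limma). The stem cell factor Sox2 differed by -0.89 (SE 0.27), Pax6, a factor of dopaminergic neuroblasts, by -0.55 (SE 0.17) and Prom1, a membrane protein of stem and ependymal cells, by -0.40 (SE 0.17). Sox2 and Thbs4 are also expressed by astrocytes outside the niche. Egfr, the receptor of activated stem and transit-amplifying cells, differed by -0.20 (SE 0.20), and Gsx2, which acts ahead of the Dlx genes, by -0.03 (SE 0.15); these 2 were named after their values were seen.

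The cell cycle list had 16 of 19 measured genes with lower means, against 51.1% of all probe sets, and a median difference of -0.27. Of the 19, 4 were lower and 0 higher at an unadjusted p under 0.05, against 4.05% and 4.82% of all probe sets. Mki67, the proliferation antigen, had 5.50, 5.28 and 5.63 in transgenic replicates 1, 2 and 3, against 5.91, 6.13 and 5.75 in wild type replicates 1, 2 and 3, and the groups did not overlap. Cenpe (-0.48, SE 0.14), Ccna2 (-0.63, SE 0.24) and Bub1 (-0.43, SE 0.17) were the others. Averaged over the list, log2 intensity was 5.70, 5.25 and 5.33 in transgenic replicates 1, 2 and 3. It was 5.72, 5.65 and 5.62 in wild type replicates 1, 2 and 3. Transgenic replicate 1 thus stood above wild type replicates 2 and 3. Its summed linear intensity, 1557, was the highest of any array. Which cells carried these transcripts cannot be read from bulk lesions, where microglia, precursors and transit-amplifying cells may all divide.

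Cues and receptors of neuroblast migration went both ways, with 18 of 32 lower and 14 higher and a median of -0.09. Gfra1, a receptor for GDNF, differed by -0.39 (SE 0.14), while Robo3 (0.57, SE 0.19) and the repellent ligand Slit2 (0.49, SE 0.21) had higher means. These 3 of the 32 passed an unadjusted p under 0.05, 1 lower and 2 higher. Such counts are near the shares of all probe sets, 4.05% lower and 4.82% higher. Bdnf, a growth factor that attracts neuroblasts, differed by 0.34 (SE 0.15) and did not pass. The prokineticin pair that draws neuroblasts towards the bulb had lower means, Prok2 by -0.48 (SE 0.25) and its receptor Prokr2 by -0.52 (SE 0.23), again named after their values were seen. For Prokr2 the high arrays were wild type replicates 2 and 3, at 5.80 and 6.03, against 5.29 in wild type replicate 1.

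**Figure D4:**
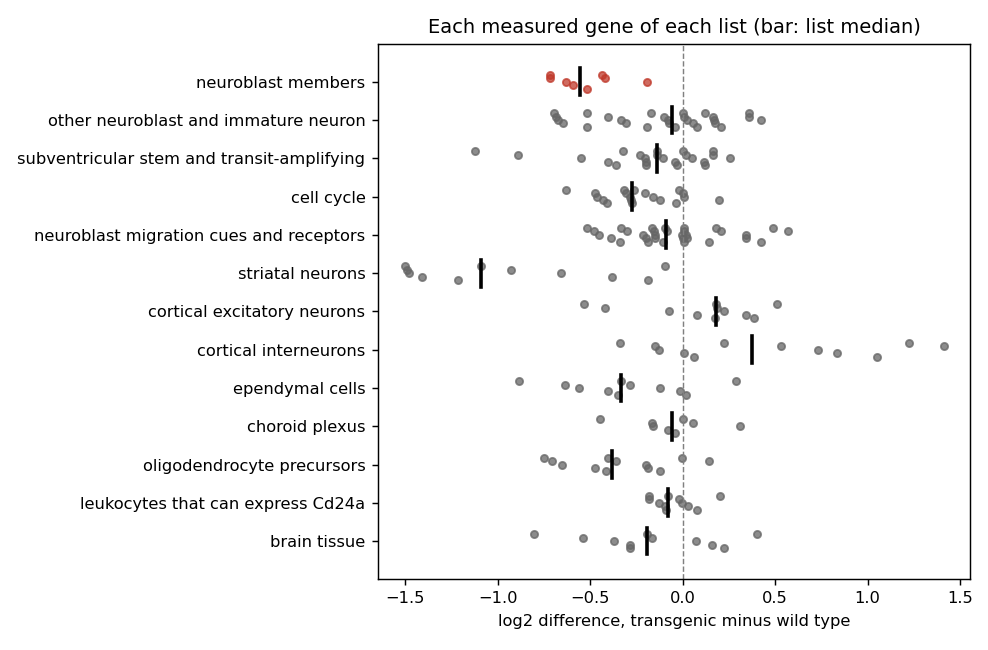
Log2 difference, transgenic minus wild type, of every measured gene in 13 lists, with the list median as a bar and the 8 neuroblast genes in red. The neuroblast genes all lie between -0.72 and -0.19, and the list of other neuroblast and immature neuron genes spreads to both sides of 0.

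Markers of other cells that share these genes were also read. Ependymal cells line the ventricle beside the zone and express Cd24a. Of their 11 measured genes 9 had lower means, with a median of -0.34. At an unadjusted p under 0.05, 3 were lower, against 4.05% of all probe sets. The 3 were Ak7 (-0.64, SE 0.16), Ccdc153 (-0.56, SE 0.21) and Tmem212 (-0.88, SE 0.38). The summed linear intensity of the ependymal list was 579 to 899 in transgenic and 694 to 1029 in wild type lesions. The ranges thus overlapped, and the highest array was wild type replicate 2. No gene of the list was at 0. Choroid plexus genes gave 6 of 8 lower with a median of -0.06, and 0 passed an unadjusted p under 0.05.

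Leukocyte genes, of which some mark cells that express Cd24a, had 8 of 11 lower means with a median of -0.08. All 11 had mean levels below that of the median probe set, and their summed intensity was 198 to 321 in transgenic and 257 to 269 in wild type lesions. Oligodendrocyte precursor genes had 11 of 12 lower means with a median of -0.38. The mean of that list was 6.52, 6.69 and 6.58 in transgenic replicates 1, 2 and 3, and 7.05, 6.86 and 6.92 in wild type replicates 1, 2 and 3, with summed intensities of 1181 to 1421 in transgenic and 1567 to 1856 in wild type lesions. Sox10, a factor of the oligodendrocyte lineage, differed by -0.75 (SE 0.17). The list's highest array was wild type replicate 1, unlike the neuroblast list.

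The Dlx genes also act in cortical interneurons, whose own markers had mostly higher means in transgenic lesions. Of 12 measured, 9 were higher and 3 lower with a median of 0.38. At an unadjusted p under 0.05, 5 were higher, against 4.82% of all probe sets. Pvalb and Vip, markers of separate interneuron classes, differed by 1.41 (SE 0.24) and 1.22 (SE 0.14), and the peptide gene Cck by 0.84 (SE 0.18). Lamp5 differed by 1.05 (SE 0.25) and Npy, named after its values were seen, by 0.73 (SE 0.20). Some other markers of the list differed by less than their SE. Among them were Sst (-0.15, SE 0.25), Adarb2 (-0.13, SE 0.15), Lhx6 (0.06, SE 0.14) and Reln (0.01, SE 0.23), named after their values were seen. The GABA transporter Slc32a1, shared by striatal, cortical and olfactory neurons and named after its values were seen, differed by -0.34 (SE 0.30) and was highest in wild type replicates 2 and 3, at 8.09 and 8.23. Cortical excitatory genes had 8 of 11 higher means with a median of 0.18. Of these 11, 1 was lower at an unadjusted p under 0.05, Foxp2 (-0.53, SE 0.21), and 0 were higher. The shares of all probe sets were 4.05% and 4.82%. The summed intensity of the interneuron list was 8253 to 11422 in transgenic and 6159 to 7488 in wild type lesions. The part of these cell types in the neuroblast values was not tested.

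Genes whose pattern over the 6 arrays was most like the neuroblast genes were found by the root mean square difference between their centred log2 values and the median centred profile of the 8 members. Among 13040 candidate genes above the median level, the 10 closest were Asic4, Id4, Plppr1, Hs6st2, Srgap1, Dgat2, Bcl11b, Sez6, Gm13889 and Tbc1d8, at 0.09 to 0.12 log2 units. The members themselves lay at 0.12 (Sp9) to 0.38 (Dcx) from that profile. Id4, an inhibitor of basic helix-loop-helix factors, had 7.40, 7.52 and 7.22 in transgenic replicates 1, 2 and 3, against 7.74, 8.07 and 8.18 in wild type replicates 1, 2 and 3. Its groups did not overlap, and wild type replicate 1 was again the lowest wild type array. Asic4, of the acid-sensing channel family, differed by -0.48 (SE 0.18) and Srgap1, a GTPase-activating protein that acts downstream of Robo receptors, by -0.38 (SE 0.15). Bcl11b, a factor of striatal and deep-layer cortical neurons, had 7.47, 7.81 and 7.58 in transgenic replicates 1, 2 and 3, against 7.62, 8.21 and 8.30 in wild type replicates 1, 2 and 3. In 5 of the 10, Asic4, Id4, Hs6st2, Srgap1 and Gm13889, the groups did not overlap. These genes were picked for this profile, so their differences are descriptions.

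**Figure D5:**
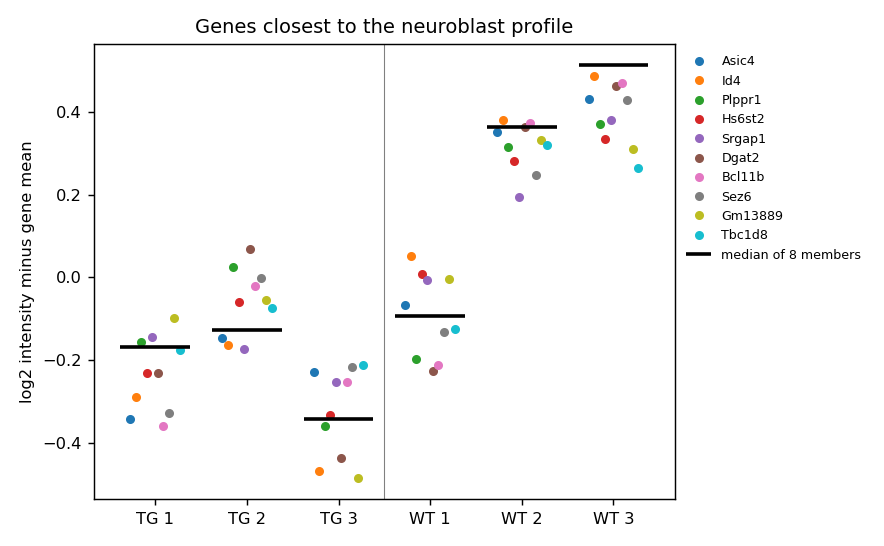
Log2 intensity minus the gene's mean over 6 arrays for the 10 genes closest to the neuroblast profile, on transgenic (TG) and wild type (WT) replicates; bars are the median of the 8 neuroblast genes. The bars stand at 0.37 and 0.52 in wild type replicates 2 and 3, at -0.09 in wild type replicate 1, and between -0.34 and -0.13 in transgenic replicates.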

How the data were processed

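The submitters' processing notes name Affymetrix Expression Console and RMA, and the deposited intensities are on a linear scale. Its version, a genome build and detection calls were not given in the sources used here. The table held 41345 probe sets and 6 columns, named by sample; 0 columns belonged to unknown samples. The platform annotation gave 1 symbol for 23521 probe sets, and the lowest intensity was 3.73, so log2 was taken with no pseudocount. Transgenic and wild type lesions were compared with limma (version 3.58.1, R 4.3.3; lmFit and eBayes) over all probe sets of the 6 arrays without a covariate, two-sided, with Benjamini-Hochberg adjustment at 0.05. Adjusted p-values are from this fit, and SDs are over 3 arrays. Precision is limited by the number of arrays, and the median 95% half-width of a log2 difference was 0.45. The fitting code was checked only on simulated data with changes larger than those of the members. That check does not bear on the members' differences.

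The members and the 13 other gene lists were chosen with earlier results of these data known. Of 213 listed genes, members included, 198 were measured. Named genes were all members, up to 4 genes per list with the smallest unadjusted p, and the 10 genes closest to the members' profile; genes outside this rule are said to be so. Lists are described by counts and medians without a set test. Alternatives covered scaling, a filter on dim probe sets, each array left out, a replicate block, sex, unmoderated variances, array weights and averaging of probe sets.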

Additional observations from a re-analysis of the deposited data

How the results depend on the processing

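The lower mean of each neuroblast gene held under the scaling alternatives, unmoderated variances, averaged probe sets and each array left out. With sex as a covariate 7 of 8 were lower, and Sox11 turned to 0.11. Probe sets above the median level kept 5 members, 5 of them lower and 0 with separate groups, and 2243 probe sets at an unadjusted p under 0.05. With array weights 3 members passed, Cd24a (-1.37, adjusted p 0.0247 in limma), Igfbpl1 (-0.71, 0.00625) and Sp9 (-0.51, 0.0409), beside 2611 probe sets, and 10793 passed unadjusted; transgenic replicate 3 had a weight of 7.67 there, against 0.258 to 1.56 on the other arrays. The sex covariate gave 1481 probe sets after adjustment and 8604 before. Leaving out 1 array at a time gave 3 to 7 members with separate groups, a median difference of -0.68 to -0.41, 0 to 335 probe sets after adjustment (335 without transgenic replicate 2) and 2031 to 5168 before. The cause of these shifts was not tested. After median centring 2 members had separate groups, against 3 without it.

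The groups share replicate numbers, but same-numbered arrays did not deviate together. Correlations of deviations from the group means were 0.01, -0.10 and -0.07 for replicates 1, 2 and 3. The labels do not say whether the numbers pair the samples, and these correlations cannot decide it. With the replicate number as a block, 8 of 8 members were lower, 0 passed, and the median difference was -0.56; 0 probe sets passed after adjustment and 2999 before.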
